A study of Homo sapiens with 24 samples.

Results

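Cystatin A and a set of genes for the cornified envelope were followed on the arrays, 8 genes of 25992 named genes on the platform: CSTA, CSTB, IVL, TGM1, SPRR1A, SPRR1B, SPRR3 and PI3. Every probe that the scanner files name for one of these genes was taken, 9 probes in all, since SPRR1A has a pair of probes and each other gene has 1. CSTA was selected on its rise with Pirfenidone in H1975 cells at 24 h on these same arrays, so its values in that comparison are given as a description without a test. The other genes were chosen by their place in the same envelope or inhibitor family. The cells were the human lung adenocarcinoma lines A549 and H1975, grown with 0.75 mg/ml Pirfenidone, an anti-fibrotic drug, or with PBS, its solvent, and collected after 6 h or 24 h. This gives 8 groups, namely A549 and H1975 cells, each with PBS or Pirfenidone, each at 6 h or 24 h. Every group held 3 samples and every sample had its own one-color Agilent array, 24 arrays in all. No other treatment or genetic change is given for any group, and the labels do not say whether the samples of a group were separate cultures, so that p-values may measure technical spread only.

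The cornified envelope is a cross-linked protein layer that replaces the plasma membrane of squamous epithelial cells at the end of their differentiation. Involucrin, the small proline-rich proteins and cystatin A are among its precursors, and transglutaminases join them through isopeptide bonds. Cystatins A and B, also called stefins, inhibit cysteine cathepsins inside the cell, and elafin, the product of PI3, inhibits neutrophil elastase and is itself a transglutaminase substrate. Glandular epithelium of the lung does not form a cornified envelope, but several precursor genes are known to be switched on there in squamous metaplasia.

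The array measures each gene through an oligonucleotide of 60 bases. The probes of 3 genes are shown because the results turn on them. The CSTA probe lies on the plus strand at chr3:122056416-122056475, the IVL probe on the plus strand at chr1:152883972-152884031 and the brighter SPRR1A probe on the plus strand at chr1:152957897-152957956, in the hg19 coordinates of the array files. No annotation of that build was used here, so exon positions are not given.
CSTA: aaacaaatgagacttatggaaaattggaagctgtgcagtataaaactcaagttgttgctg
IVL: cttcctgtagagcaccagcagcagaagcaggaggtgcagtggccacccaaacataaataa
SPRR1A, brighter probe: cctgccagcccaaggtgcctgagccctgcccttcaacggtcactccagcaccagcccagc
The share of G and C bases was 35% in the CSTA probe, 51.7% in the IVL probe and 68.3% in the brighter SPRR1A probe.

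IVL, SPRR1A, SPRR3 and SPRR1B are neighbors in the epidermal differentiation complex, where they span 124 kb of chromosome 1 on GRCh38.p14. The 250 bases before the start of each of these 4 genes are shown because the genes share a location and, in part, a pattern on the arrays. The sequences come from the RefSeq promoter table of GRCh38.p14, in which these 4 of the 8 genes were found. All lie on the plus strand, IVL at chr1:152908296-152908545, SPRR1A at chr1:152983831-152984080, SPRR3 at chr1:153001499-153001748 and SPRR1B at chr1:153030953-153031202. Capitals mark matches to TGANTCA, the core recognized by AP-1 factors, and to TATAAA, the TATA box core, searched on both strands. The former reads the same on both strands, and no match overlapped another.
IVL: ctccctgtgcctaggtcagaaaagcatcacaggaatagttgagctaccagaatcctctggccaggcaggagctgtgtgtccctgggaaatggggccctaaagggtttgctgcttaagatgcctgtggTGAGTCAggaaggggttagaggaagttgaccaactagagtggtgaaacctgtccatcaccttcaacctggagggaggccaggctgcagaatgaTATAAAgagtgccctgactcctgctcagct
SPRR1A: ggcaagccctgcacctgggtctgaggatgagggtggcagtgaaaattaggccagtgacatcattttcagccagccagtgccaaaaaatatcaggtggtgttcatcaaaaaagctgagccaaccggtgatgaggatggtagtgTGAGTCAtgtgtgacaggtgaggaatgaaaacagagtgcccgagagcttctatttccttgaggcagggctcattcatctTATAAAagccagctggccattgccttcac
SPRR3: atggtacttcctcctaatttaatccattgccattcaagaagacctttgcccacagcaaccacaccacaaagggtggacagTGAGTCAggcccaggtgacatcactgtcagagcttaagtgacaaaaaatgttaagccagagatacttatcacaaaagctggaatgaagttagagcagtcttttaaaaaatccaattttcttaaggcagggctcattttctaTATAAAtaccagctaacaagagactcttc
SPRR1B: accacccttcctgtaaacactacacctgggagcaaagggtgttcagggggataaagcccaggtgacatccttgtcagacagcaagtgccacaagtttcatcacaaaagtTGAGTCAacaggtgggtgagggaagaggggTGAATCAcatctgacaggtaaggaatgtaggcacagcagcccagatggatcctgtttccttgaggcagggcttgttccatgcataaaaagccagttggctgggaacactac
TGANTCA was found in all 4 windows, and SPRR1B held it at 2 positions. Its first base lay 123 bases before the start of IVL, 108 before SPRR1A, 170 before SPRR3, and 141 and 111 before SPRR1B. TATAAA was found in IVL, SPRR1A and SPRR3 and not in SPRR1B. Among all 35116 promoters of the table, 6.57% held TGANTCA and 10.7% held TATAAA in the same window. These are matches of letters and no measurement of binding.

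Values below are normalized log2 signals, that is the log2 of the background-subtracted signal of a probe minus the 75th percentile of its array, and they compare arrays for 1 probe and not genes with each other. A probe was called in a comparison at a limma adjusted p of 0.05 or less, with Benjamini-Hochberg adjustment over the 23827 probes tested, and a log2 difference of at least 1 in size. In bulk RNA, fewer cells that express a gene and less RNA per cell cannot be told apart. Arrays whose scanner files carry the same date form a run here, coded 1 to 4, and what the date marks is not stated. In the A549 24 h groups the pair of arrays from run 1, both replicate 3, stood apart from the other pairs in its difference between Pirfenidone and PBS, so the members' A549 differences at 24 h are also given without it. The lines shared no slide, and line and slide cannot be told apart. As a check of the labels, 6 of 6 epithelial markers, with EPCAM and KRT18 among them, gave a signal well above background on the 24 arrays. The lung lineage factor NKX2-1, chosen with earlier results of these data known, was well above background on all 12 H1975 arrays and on 0 A549 arrays. TP63 and KRT5, defining genes of squamous basal cells, were well above background on 0 of the 24 arrays. Of the 20 squamous and keratinocyte markers that include them, 11 were well above background on all 12 H1975 arrays and 6 on none. In A549 these counts were 7 and 8. KRT14 was well above background on all 24 arrays.

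CSTA had a low and measurable signal in both lines, well above background on all 24 arrays. In H1975 cells with PBS at 24 h its signal was -6.48, -6.50 and -6.69 on the 3 arrays, and with Pirfenidone it was -4.30, -4.14 and -3.57. The 3 Pirfenidone arrays lay above the 3 PBS arrays, as for 16.3% of all probes in this comparison, with background-subtracted signals from 188.2 upward against at most 46.6. The mean difference was 2.55 on the log2 scale (standard error 0.43), or 5.87-fold, and ranked CSTA at 8 of 23827 probes by size of rise. Within the runs it was 3.11 in run 1, 2.18 in run 3 and 2.36 in run 4. These values chose the gene and carry no test. With normexp background correction, which models the background in place of subtracting it, the difference was 1.37, the lowest of the alternatives.

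At 6 h in H1975 cells CSTA was at -6.73, -6.08 and -6.51 with PBS and at -5.90, -5.88 and -5.46 with Pirfenidone. The groups did not overlap, with the Pirfenidone arrays on top, as for 10.6% of all probes here. The log2 difference of 0.69 (standard error 0.43, limma adjusted p = 0.644) did not pass. Within the runs it was 1.27, 0.18 and 0.63 in runs 1, 3 and 4. With normexp correction it was 1.44, where the median of all probes was itself shifted by 0.29, and it did not pass either (limma adjusted p = 0.136).

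In A549 cells CSTA started from a higher level. At 6 h its signal was -4.56, -5.33 and -4.75 with PBS and -4.49, -4.69 and -4.31 with Pirfenidone. The groups overlapped, and the log2 difference was 0.39 (standard error 0.43, limma adjusted p = 1, higher in 3 of 3 runs). At 24 h the signal was -4.60, -4.88 and -2.39 with PBS and -4.07, -3.44 and -4.26 with Pirfenidone. The PBS array of replicate 3, from run 1, had the highest CSTA signal of all 24 arrays. The difference within runs was -1.86 in run 1, 0.53 in run 2 and 1.44 in run 3, with a mean of 0.03 (standard error 0.43, limma adjusted p = 1). Without both arrays of run 1 it was 0.98 (limma adjusted p = 0.294), so the call was the same and the value was not. The part of that pair in the A549 result was not tested.

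**Figure D1:**
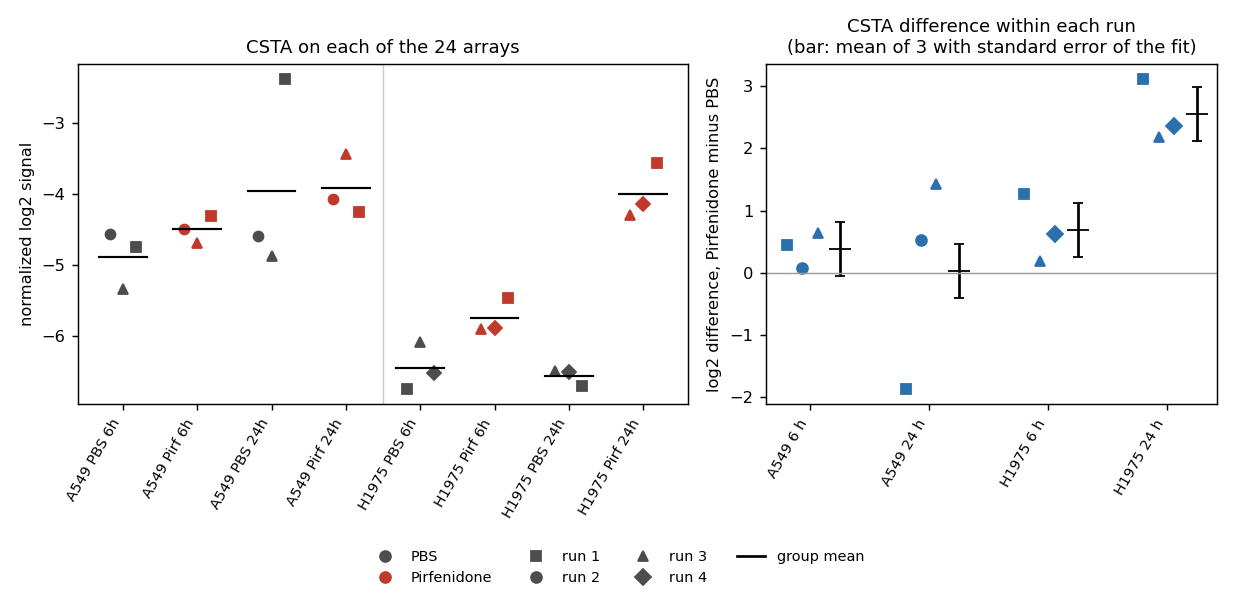
CSTA in the 8 groups. Left, normalized log2 signal (y axis) on each array, with color for treatment, marker shape for run and a line at the mean of 3 arrays. Right, log2 difference between the Pirfenidone and the PBS array of the same run, with the mean and standard error of the fit beside the points. The 3 H1975 points at 24 h lie between 2.18 and 3.11, while the A549 points at 24 h run from -1.86 to 1.44.

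By group mean, CSTA was highest in A549 with Pirfenidone at 24 h (-3.92), A549 with PBS at 24 h (-3.95) and H1975 with Pirfenidone at 24 h (-4.01). These 3 groups overlapped. A549 with Pirfenidone at 6 h (-4.49) and with PBS at 6 h (-4.88) came next and overlapped each other. Both also overlapped A549 with PBS at 24 h, whose arrays ran from -4.88 to -2.39. H1975 with Pirfenidone at 6 h (-5.75) lay below all A549 arrays, and H1975 with PBS at 6 h (-6.44) and at 24 h (-6.56) were the lowest and overlapped each other. The treated H1975 cells at 24 h were thus in the range of A549 cells, and every H1975 PBS array was below every A549 array. The share of all probes for which this holds was not counted.

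Probes with an array pattern like that of CSTA were sought over the 24 arrays, after each probe was centered on its mean in each line. The 5 with the highest Pearson r were GLG1 (0.933), LOC79999 (0.930), CTBS (0.924), ZMYND12 (0.920) and GNB5 (0.918), named as in the array files. They are given as a description, since the points share arrays, runs and treatment. The log2 difference of these genes in H1975 at 24 h was 0.45, 1.22, 0.81, 1.42 and 0.43, smaller than the 2.55 of CSTA.

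CSTB encodes the other intracellular cystatin and is expressed in most tissues. Its probe lies on the minus strand at chr21:45194056-45194115. Its signal ranged from 4.15 to 4.61 over the 12 A549 arrays and from 3.83 to 5.16 over the 12 H1975 arrays. In H1975 at 24 h it was 4.02, 4.10 and 4.73 with PBS and 4.19, 4.29 and 5.16 with Pirfenidone. The groups overlapped, with a mean log2 difference of 0.26 (standard error 0.23, 95% interval from -0.22 to 0.75). Within runs the Pirfenidone array was the higher one in 3 of 3, by 0.17 to 0.43. In the other 3 comparisons with Pirfenidone the log2 difference of CSTB lay between -0.03 and 0.05 with a standard error of 0.23. Its largest value in H1975 was on the treated 24 h array of run 1, and all 4 H1975 arrays of that run were above the other 8.

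Of the 8 member probes tested, 1 was called with Pirfenidone in H1975 at 24 h, namely CSTA, against 1.89% of all probes, and nothing is read from this count because the comparison chose CSTA. Without the 4 H1975 arrays of run 1, an alternative added after the data were seen, the count was 0 and the CSTA difference 2.27. The other 7 had log2 differences between -0.44 (SPRR1B) and 0.26 (CSTB), and the Pirfenidone and PBS arrays of each overlapped. Over the 8 probes the median log2 difference was 0.13, against 0.02 over all probes. In H1975 at 6 h 0 of 8 were called, against 0.491% of all probes. In A549 0 of 8 were called at 6 h, against 0.176%, and 0 of 8 at 24 h, against 0.0126%. At an unadjusted limma p under 0.05 the count was also 0 in each of these 3 comparisons. By an unadjusted t-test paired by run it was 0 too, but there a log2 difference of at least 1 in size was also required. In that paired test TGM1 in H1975 at 6 h, with a mean difference of -0.34, failed on the size limit alone. Without the A549 pair of run 1 at 24 h the number of members called there stayed 0. The log2 differences then ran from -1.16 (IVL, near background) to 0.98 (CSTA). The members' median log2 difference was -0.10 in H1975 at 6 h, against 0.05 over all probes. For A549 the members' median was -0.06 at the early time, against -0.01, and 0.04 at the late time, against -0.02.

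**Figure D2:**
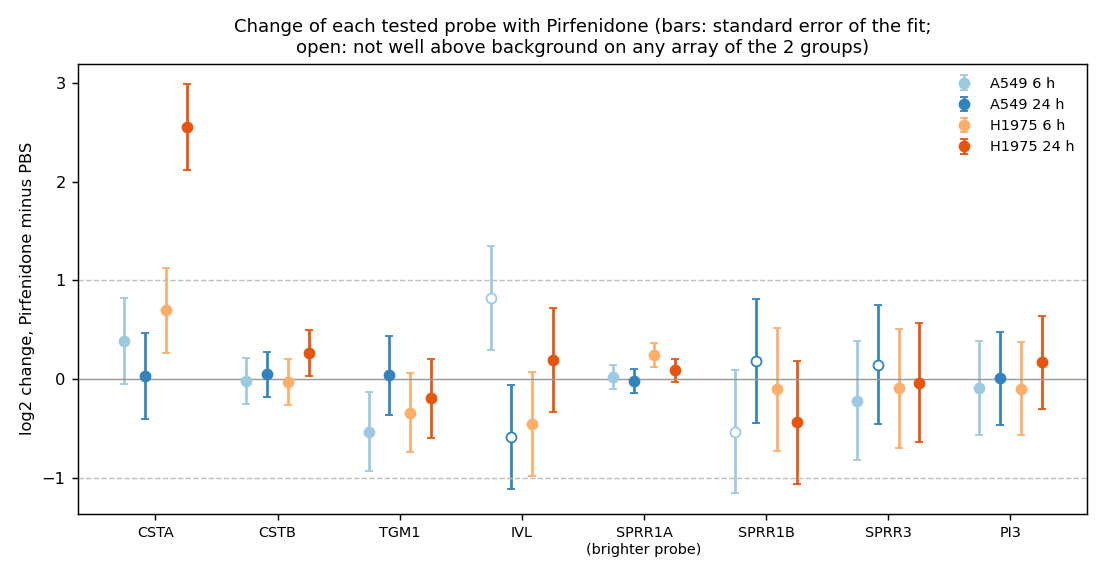
Log2 difference between Pirfenidone and PBS (y axis) for the 8 member probes tested, in the 4 comparisons, with the standard error of the fit as bars. Dashed lines mark a log2 difference of 1 in size, and open points were not well above background on any array of either group. CSTA in H1975 at 24 h, at 2.55, is past the dashed lines, and all other points lie between -0.59 and 0.82.

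TGM1, the membrane-bound transglutaminase that builds the envelope, was well above background on all 24 arrays. Its probe lies on the minus strand at chr14:24718451-24718510. In H1975 at 24 h its signal was -3.26, -3.84 and -3.79 with PBS and -3.49, -4.09 and -3.90 with Pirfenidone. The Pirfenidone array was the lower one in 3 of 3 runs, by 0.11 to 0.26, and the groups overlapped. At 6 h in H1975 it was also lower in 3 of 3 runs, with a mean of -0.34 (standard error 0.40, limma adjusted p = 0.890). In A549 TGM1 differed by -0.53 at 6 h and by 0.04 at 24 h (standard error 0.40 and limma adjusted p = 1 for both).

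IVL, the gene of involucrin, an early scaffold of the envelope, separated the lines. On the 12 A549 arrays its signal was between -9.17 and -6.57 and was not well above background on any of them. On the 12 H1975 arrays it lay between -4.32 and -2.57 and was well above background on all. All A549 arrays lay below all H1975 arrays, a separation whose share over all probes was not counted. In H1975 with PBS at 24 h IVL was at -4.29, -4.12 and -2.70, and with Pirfenidone at -4.09, -3.87 and -2.57. The Pirfenidone array was higher in 3 of 3 runs by 0.12 to 0.24, and the groups overlapped because the run 1 arrays were high in both. The mean difference was 0.19 (standard error 0.53, 95% interval from -0.92 to 1.30). At 6 h in H1975 it was -0.46 (standard error 0.53, limma adjusted p = 0.887).

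SPRR1B and SPRR3 encode small proline-rich proteins, which bridge other precursors in the envelope. The SPRR1B probe lies on the plus strand at chr1:153005304-153005363. In H1975 its signal was -5.61 and -5.65 in runs 3 and 4 and -3.67 in run 1 with PBS at 6 h. With Pirfenidone at 6 h it was -5.64, -5.96 and -3.65 in the same runs. The values at 6 h fell into levels by run and not by treatment. At 24 h SPRR1B was at -4.98, -4.67 and -3.62 with PBS and at -5.51, -5.49 and -3.59 with Pirfenidone in runs 3, 4 and 1. The treated arrays were lower in runs 3 and 4, by up to 0.82, and higher by 0.03 in run 1. The mean difference at 24 h was -0.44 (standard error 0.62, 95% interval from -1.75 to 0.87). On the 12 A549 arrays SPRR1B was not well above background, with signals from -9.04 to -7.87.

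The SPRR3 probe lies on the plus strand at chr1:152976230-152976289. In H1975 with PBS at 24 h its signal was -4.01, -3.84 and -2.13, and with Pirfenidone it was -3.91, -3.83 and -2.35. These groups overlapped, and the difference of -0.04 (standard error 0.61) was small against the spread. At 6 h the H1975 difference was -0.10 (standard error 0.61, limma adjusted p = 0.987). In A549 SPRR3 was well above background on 2 of 12 arrays, the PBS and the Pirfenidone array of run 1 at 6 h, with signals of -6.31 and -6.49.

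SPRR1A, the close relative of SPRR1B, gave conflicting readings. The brighter probe was well above background on all 24 arrays, at -1.37 to -1.10 in A549 and at -1.14 to -0.47 in H1975. It differed with Pirfenidone by at most 0.24 on the log2 scale, in H1975 at 6 h (standard error 0.12, limma adjusted p = 0.468). The highest value, -0.47, was on 1 array, H1975 with Pirfenidone at 6 h in run 3. The dimmer probe, on the plus strand at chr1:152958192-152958251, was well above background on 3 of 24 arrays and was left out of the tests. Its signals ranged from -9.37 to -6.52. The probes thus gave different readings of SPRR1A, and which of them follows its RNA was not tested. The small proline-rich genes are near-identical in part, so the gene that a probe of this family reads is uncertain.

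PI3, the gene of elafin, was well above background on all 24 arrays. Its probe lies on the plus strand at chr20:43804645-43804704. In H1975 at 24 h its signal was -6.54, -6.40 and -6.77 with PBS and -6.97, -6.15 and -6.08 with Pirfenidone. The groups overlapped and the runs differed in direction, from -0.43 to 0.69. The mean difference was 0.17 (standard error 0.47). In the other 3 comparisons the difference of PI3 with Pirfenidone lay between -0.10 and 0.00 (standard error 0.47).

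**Figure D3:**
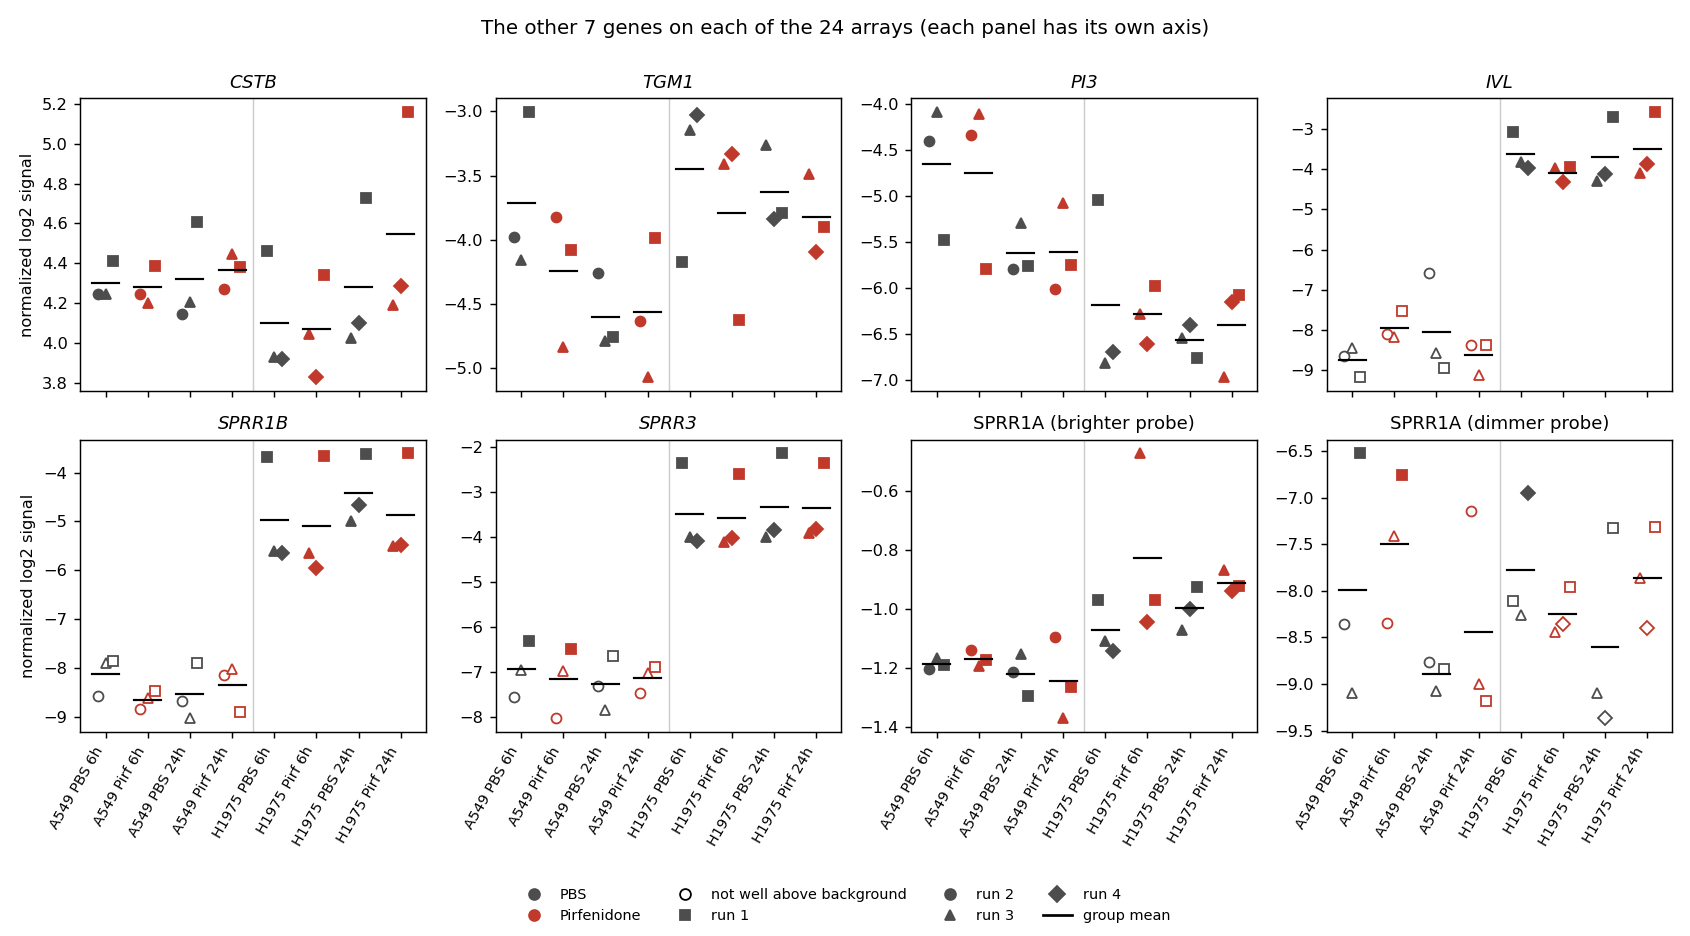
Normalized log2 signal (y axis) of CSTB, TGM1, PI3, IVL, SPRR1B, SPRR3 and both SPRR1A probes on each of the 24 arrays, by group. Color shows the treatment, marker shape the run, open markers an array on which the probe was not well above background, and lines the mean of 3 arrays. IVL and SPRR1B have only open markers in A549 and only filled ones in H1975, while CSTB spans 3.83 to 5.16 over both lines.

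The PBS samples allow the lines to be compared without the drug. At 6 h 5 of 8 member probes differed between H1975 and A549, 3 higher and 2 lower in H1975, where 32.4% of all probes were called. At 24 h 4 of 8 were called, 3 higher and 1 lower, against 32.9% of all probes, and nothing is read from the lower one, CSTA, whose H1975 arrays at 24 h entered its choice. The 3 higher genes were IVL, SPRR1B and SPRR3 at both times. Their probes passed the filter on dim probes through H1975 arrays alone, so these counts are no support for a difference, and the p-values given for them come from the fit without that filter. There 24.6% of 34127 probes were called at 6 h and 25.4% at 24 h, and the members called were the same. IVL was at least 9.47-fold higher in H1975 at 6 h and at least 8.12-fold higher at 24 h. Its measured log2 differences were 5.12 (limma adjusted p = 1.72e-07) and 4.34 (limma adjusted p = 1.53e-06). SPRR1B was at least 3.72-fold higher at 6 h and at least 4.93-fold higher at 24 h. Its measured log2 differences were 3.14 (limma adjusted p = 0.000406) and 4.11 (limma adjusted p = 2.23e-05). The fold values are lower bounds. Each sets the H1975 mean against, on each A549 array, the higher of the probe's own signal and the lowest signal among probes well above background. The p-values are for the measured differences, which use A549 readings not well above background, and no bound was tested.

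SPRR3 was 3.47 higher in H1975 on the log2 scale at 6 h (limma adjusted p = 0.000109), with 1 of 3 A549 arrays well above background. At 24 h SPRR3 was at least 10.5-fold higher, again a bound without a test. Its measured log2 difference was 3.95 (limma adjusted p = 2.49e-05). Runs 1 and 3 hold PBS samples of both lines, and in both runs and at both times the H1975 array read higher than the A549 array for IVL, SPRR1B and SPRR3. SPRR1B was not called with normexp correction at 6 h (limma adjusted p = 0.205) or at 24 h (limma adjusted p = 0.0591).

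CSTA was lower in H1975 than in A549 with PBS at 6 h, by -1.56 on the log2 scale (standard error 0.43, limma adjusted p = 0.0046). The arrays did not overlap, and the share of all probes that separate so between the lines was not counted. The difference was -1.98 in run 1 and -0.75 in run 3, and it was not called with normexp correction (limma adjusted p = 0.142). At 24 h it was -2.60 (standard error 0.43), with -4.30 in run 1 and -1.61 in run 3, and is given without a test because these H1975 arrays entered the choice of CSTA. Without the A549 pair of run 1 it was -1.82, and the other members called at 24 h were the same. PI3 was lower in H1975 at 6 h by -1.53 (standard error 0.47, limma adjusted p = 0.00931), but the arrays overlapped. Within run 3 the PI3 difference was -2.73, and within run 1 it was 0.43, so the direction did not hold within runs. The PI3 call was lost without A549 PBS 6 h replicate 2 (limma adjusted p = 0.0532) and without H1975 PBS 6 h replicate 2 (limma adjusted p = 0.0556). At 24 h PI3 differed by -0.95 (standard error 0.47, limma adjusted p = 0.0917).

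TGM1 was 0.97 higher in H1975 with PBS at 24 h (standard error 0.40, limma adjusted p = 0.0446), just under the fold limit. At 6 h it was 0.26 higher (standard error 0.40, limma adjusted p = 0.594), with -1.17 in run 1 and 1.01 in run 3. CSTB differed between the lines by -0.20 at 6 h (limma adjusted p = 0.481) and by -0.04 at 24 h (limma adjusted p = 0.9), with a standard error of 0.23. The brighter SPRR1A probe was higher in H1975 by 0.11 at 6 h (limma adjusted p = 0.429) and by 0.22 at 24 h (limma adjusted p = 0.116), with a standard error of 0.12. Its arrays did not overlap at either time, but the share of all probes that separate so was not counted, and nothing is read from it.

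**Figure D4:**
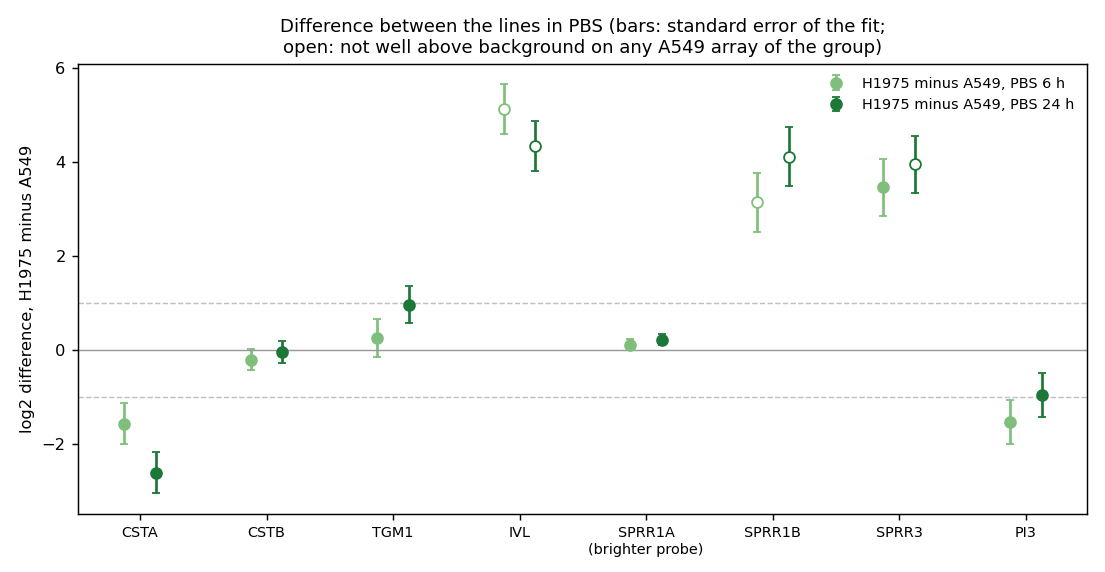
Log2 difference between H1975 and A549 with PBS (y axis) for the 8 member probes tested, at 6 h and 24 h, with the standard error of the fit as bars. Open points were not well above background on any A549 array of the group, so that their height depends on background. IVL, SPRR1B and SPRR3 lie between 3.14 and 5.12, CSTA at -1.56 and -2.60.

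Culture time alone was compared in the PBS samples. Between 6 h and 24 h 0 of 8 member probes were called in A549, against 0.109% of all probes, and 0 of 8 in H1975, against 0.315%. At an unadjusted limma p under 0.05 there were 2 of 8 in A549 and 0 of 7 in H1975. Nothing is read from these counts, since the share of all probes at that limit was not counted. The 2 were CSTA, at 0.93 higher after 24 h (standard error 0.43, limma adjusted p = 0.583), with the replicate 3 array at -2.39 and the others at -4.60 and -4.88, and TGM1, at -0.89 (standard error 0.40, limma adjusted p = 0.569). PI3 was -0.96 in A549 (standard error 0.47, limma adjusted p = 0.601).

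The difference between the lines in their change with Pirfenidone was called for 0 of 8 member probes at 6 h, against 0.0336% of all probes, and for 0 of 8 at 24 h, against 0.193%. At an unadjusted limma p under 0.05 the count was 0 of 8 at 6 h and 0 of 7 at 24 h, CSTA left out of the latter. The share of all probes at that limit was not counted. The CSTA change at 24 h was 2.52 larger in H1975 on the log2 scale (standard error 0.61), and without the A549 pair of run 1 it was 1.57 larger. Both are values without a test. The interval of this difference at 24 h was -0.47 to 0.90 for CSTB, -0.79 to 2.34 for IVL and -1.42 to 0.95 for TGM1, each at 95%.

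The levels of several envelope genes in H1975 differed by run. The 4 H1975 arrays of run 1, 1 per group, had SPRR1B between -3.67 and -3.59, and the other 8 arrays had it between -5.96 and -4.67. For SPRR3 the values were -2.59 to -2.13 against -4.12 to -3.83. For CSTB they were 4.34 to 5.16 against 3.83 to 4.29. In these 3 of the 8 probes tested all run 1 arrays were above all others, against 8.41% of all probes. The mean difference was 1.80 for SPRR1B, 1.62 for SPRR3 and 0.63 for CSTB. IVL was higher on 3 of the 4 run 1 arrays, with a mean difference of 0.98. The exception was the Pirfenidone array at 6 h, at -3.96. CSTA showed no such step, with a mean difference of 0.11, nor did the brighter SPRR1A probe, with 0.01. The CSTA arrays of run 1 were the lowest of their groups with PBS, at -6.73 at 6 h and -6.69 at 24 h. With Pirfenidone they were the highest, at -5.46 and -3.57, so run 1 had the largest CSTA difference at both times. TGM1 was lower in run 1, with a mean difference of -0.67. In A549 SPRR3 was higher on the 4 run 1 arrays than on the other 8, by 0.82 in the mean, with 2 of these 12 arrays well above background. How many of all probes separate so in A549 was not counted, and nothing is read from it. Since each group has 1 array of run 1, a shift shared by the groups cancels in the means of the treatment comparisons and widens the standard errors. What in run 1 goes with these levels was not tested.

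**Figure D5:**
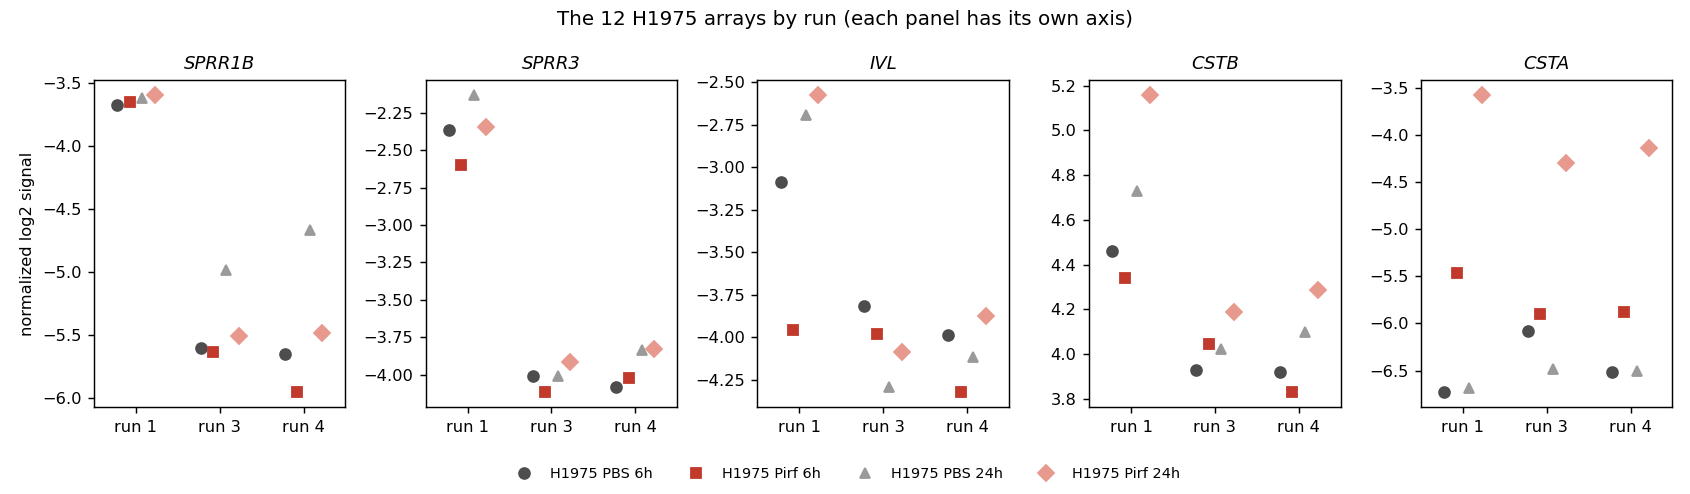
Normalized log2 signal (y axis) of SPRR1B, SPRR3, IVL, CSTB and CSTA on the 12 H1975 arrays, by run, with color and marker for the group. SPRR1B in run 1 lies at -3.67 to -3.59 in all 4 groups, while CSTA separates by treatment at 24 h in each run.

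Other genes of the same system were read through lists, each gene by its brightest probe. Of 45 further cornified envelope precursors on the array, 24 were tested. Pirfenidone gave 1 call, SPRR2A in H1975 at 24 h, where 1.89% of all probes were called, and 0 in the other 3 comparisons. SPRR2A passed the filter through the treated arrays of that comparison alone, so the call is no support for a rise. Its signal was between -7.45 and -6.30 with PBS, where 2 of 3 arrays were well above background, and between -5.88 and -3.89 with Pirfenidone, a log2 difference of 1.80 (standard error 0.40). SPRR2A has near-identical neighbors and its probe may read several of them. The median log2 difference of the 24 genes in H1975 at 24 h was 0.13, against 0.02 over all probes.

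Between the lines with PBS, 8 of these precursors were higher and 2 lower in H1975 at 6 h, and again 8 and 2 at 24 h. Of all probes, 32.4% were called between the lines at 6 h and 32.9% at 24 h. At 6 h KRTDAP was at least 9.04-fold higher and FLG, the gene of filaggrin, at least 6.27-fold higher. Both were well above background on 12 of 12 H1975 and 0 of 12 A549 arrays and so passed the filter through H1975 alone, and the lists' counts between the lines hold such genes and are descriptions. SCEL, the gene of sciellin, was 2.29 higher (standard error 0.91, limma adjusted p = 0.0384). In the other direction CNFN, the gene of cornifelin, differed by -2.71 (standard error 0.20, limma adjusted p = 8.15e-10), and LCE3D was well above background on 12 of 12 A549 and 2 of 12 H1975 arrays. Culture time gave 1 call among the 24, PPL, the gene of periplakin, in H1975 with PBS, against 0.315% of all probes. PPL was 1.57 higher after 24 h than after 6 h (standard error 0.32, limma adjusted p = 0.0234). Of 8 other transglutaminase family genes, 3 were tested and 0 were called with Pirfenidone. Between the lines with PBS at 6 h, 1 of the 3 was higher and 1 lower in H1975, against 32.4% of all probes called. F13A1, the higher one, was well above background on 0 of 12 A549 and 10 of 12 H1975 arrays. EPB42, an inactive family member of red cell membranes, differed by -3.80 (standard error 0.40, limma adjusted p = 1.13e-07).

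Of 11 other cystatins on the array, 7 were tested. CST7, the gene of cystatin F, was the 1 called with Pirfenidone, in H1975 at 24 h, against 1.89% of all probes. It was well above background on the 3 Pirfenidone arrays, at -6.70 to -5.87, and on 0 of the other 21, which makes it at least 1.90-fold higher than with PBS. Since these 3 arrays alone brought it past the filter, the call adds nothing to that bound. Between the lines with PBS at 6 h, 2 cystatins were higher in H1975, CST6 and CST7, and 2 lower, CST1 and CST2. Of all probes, 32.4% were called there. CST7 was well above background on 0 of 3 arrays in both groups, so its call compares readings near background and is no support for a difference. CST1 differed by -2.92 (standard error 1.15, limma adjusted p = 0.0366), and CST2 was at least 3.64-fold lower, with 8 of 12 A549 and 2 of 12 H1975 arrays well above background. At 24 h 2 cystatins were higher and 0 lower, against 32.9% of all probes called. CST6, the gene of cystatin M/E of the epidermis, was at least 500-fold higher in H1975 than in A549 with PBS at 6 h and was well above background on 0 of 12 A549 arrays. It was not called with Pirfenidone in either line. Its H1975 signal was between 1.26 and 2.80. Of 12 genes for cysteine cathepsins and legumain, the proteases that these inhibitors bind, 10 were tested and 0 were called in the 4 comparisons with Pirfenidone, with log2 differences from -0.25 to 0.73 in H1975 at 24 h. Among them CTSC was 2.93 higher in H1975 than in A549 with PBS at 6 h (standard error 0.32, limma adjusted p = 2.60e-07). Of 17 genes for other inhibitors with the WAP domain of elafin and for the proteases they inhibit, 6 were tested and 0 were called with Pirfenidone. With PBS at 6 h, 3 were higher in H1975, WFDC10B, WFDC2 and WFDC3, and 3 lower, ELANE, SLPI and PRTN3, against 32.4% of all probes called. WFDC3 was 3.66 higher (standard error 0.12, limma adjusted p = 5.36e-15), while WFDC10B and WFDC2 were well above background on 12 of 12 H1975 arrays and on 0 and 1 of 12 A549 arrays. SLPI differed by -1.43 (standard error 0.45, limma adjusted p = 0.0104) and PRTN3 by -1.25 (standard error 0.32, limma adjusted p = 0.00231). ELANE, the gene of neutrophil elastase, was well above background on 8 of 12 A549 and 0 of 12 H1975 arrays.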

How the data were processed

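RNA of 24 samples, 3 in each of 8 groups of line, treatment and time, was labeled with Cy3 and hybridized to Agilent one-color arrays, 1 per sample. Per the file headers, the deposited intensity values were extracted with Feature Extraction 11.5.1.1, which subtracted background and corrected spatial trends within each array. The authors also deposited a table of log2 values for the same arrays, scaled by a step not given in the sources used here and centered per probe, with column medians from -0.16 to 0.16. It was used as an alternative.

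Intensities of 43118 non-control spots were converted to log2 and centered on the 75th percentile of each array, without outlier spots, and spots of a probe were averaged. The extraction software marks spots that are well above background, and a probe took that mark where at least 0.5 of its spots had it. The 23827 of 34127 probes that had the mark on the 3 arrays of some group were tested. The 8 groups were fitted together with limma 3.58.1 in R 4.3.3 (16 residual degrees of freedom) with Benjamini-Hochberg adjustment. The same steps were tested on simulated data. With 3 arrays per group their number limits the precision. The share of probes well above background was 62.7% to 69.5% per array.

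The members and the lists were chosen with earlier results of these data known. A list gene was read by its brightest probe over the 24 arrays. At most the 3 genes with the largest differences among those called were named per list and direction, besides those that check the lines and the 5 probes most like CSTA. Alternatives covered background correction, quantile normalization, the filter, the fold limit, the adjustment, blocks, the samples in the fit, probes of a gene averaged, and each array left out. Promoter windows came from RefSeq (GRCh38.p14). The comparison of leukocyte markers between the lines is not reported here.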

Additional observations from a re-analysis of the deposited data

Results flagged for a closer look

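The change of IVL with Pirfenidone at 6 h ran in opposite directions in the lines, and this pattern drew attention to it. The log2 difference was 0.82 in A549, where the 3 runs gave 0.27 to 1.65, and -0.46 in H1975, where the 3 runs gave -0.87 to -0.16. The change in H1975 minus that in A549 was -1.27 (standard error 0.75, limma adjusted p = 1), so the difference did not pass the test. IVL was not well above background on any A549 array, and the A549 values are therefore readings near background.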

How the results depend on the processing

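Of 302 alternatives of the counts of member probes called and of the CSTA differences, 290 were the same, and 0 turned the direction of a called value. Same means a count within 1.5 times the main count or a CSTA difference that kept its call. For CSTA in H1975 at 24 h it means a shift under 0.38, the larger standard deviation of its groups. Most alternatives belong to results with no call in the main fit, so that little could change. With Pirfenidone in H1975 at 24 h, 18 of 22 counts and 21 of 22 CSTA differences were the same. Between the lines, 15 of 18 counts were the same at 6 h and 17 of 19 at 24 h. The exceptions were as follows. Normexp correction gave 1.37 in place of 2.55 for CSTA in H1975 at 24 h and 0 calls there, and 2 calls between the lines at 6 h, IVL and SPRR3. With Holm adjustment, stricter by construction, the calls were 0 for Pirfenidone in H1975 at 24 h and 1, IVL, between the lines at each time. With only the 18892 probes well above background on all 24 arrays, which leaves fewer probes tested, they were 2 between the lines at 6 h, CSTA and PI3, and 1 at 24 h, CSTA. An ordinary t-test paired by run, where the methods name a moderated one, gave 0 in H1975 at 24 h after Benjamini-Hochberg. It called 0 of all 23827 probes there, so that 0 says nothing about the members. Leaving out the 4 H1975 arrays of run 1 also gave 0 in H1975 at 24 h. With run as a block the count for the lines' difference in change at 24 h was 1, CSTA, from which nothing is read since these values chose it. Leaving out single arrays gave 0 to 1 calls for that difference, the 1 without replicate 2 of A549 with PBS at 24 h, 4 to 5 between the lines at each time, and the main count elsewhere. The fifth call at 24 h was TGM1, without replicate 1 of A549 with PBS (1.14, limma adjusted p = 0.0395). The PI3 call at 6 h was also lost in a fit of its own 6 arrays (limma adjusted p = 0.0622). CSTA in A549 at 24 h ranged from -0.43 to 0.81 as single arrays were left out. The cause of these shifts was not tested. The replicate numbers of the labels marked runs in A549 but not across the H1975 groups at 6 h, where same-numbered samples correlated at -0.48, 0.43 and -0.68 and same-run samples at 0.82, 0.50 and 0.70. With the replicate block the counts were 0, 0, 0 and 1 for Pirfenidone and 5 and 4 between the lines, and no call changed. The Westfall-Young adjustment of the methods was not run, since 3 arrays against 3 cannot reach a permutation p under 0.1. Low signal in A549 leaves only bounds for IVL and SPRR1B, and for SPRR3 at 24 h.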

Other observations

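Factors of epidermal differentiation differed between the lines in both directions. Of 22 on the array 20 were tested, and with PBS 4 were higher and 6 lower in H1975 at 6 h and again at 24 h, where 32.4% and 32.9% of all probes were called. OVOL1 was at least 39.7-fold higher in H1975 at 6 h and GRHL2 at least 16.5-fold. Neither was well above background on an A549 array, so both passed the filter on dim probes through H1975 alone. GRHL3, a relative of GRHL2, went the other way with -3.69 (standard error 0.35, limma adjusted p = 3.52e-08), as did ELF3 with -3.53 (standard error 0.51, limma adjusted p = 6.93e-06) and CEBPA with -3.12 (standard error 0.16, limma adjusted p = 2.11e-12). With Pirfenidone 1 of the 20 was called, POU2F3 in H1975 at 6 h, where 0.491% of all probes were called. The log2 difference was -1.01 (standard error 0.25, limma adjusted p = 0.0492). POU2F3 was well above background on 3 of 3 PBS arrays and 1 of 3 Pirfenidone arrays there, so its size depends on readings near background.

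Squamous and keratinocyte markers also differed between the lines in both directions. Of 20 markers 13 were tested, with 6 higher and 3 lower in H1975 with PBS at 6 h and 8 higher and 1 lower at 24 h. Of all probes, 32.4% and 32.9% were called in these comparisons. KRT14 was 3.40 higher at 6 h (standard error 0.38, limma adjusted p = 2.40e-07) and KRT17 3.37 higher (standard error 0.41, limma adjusted p = 9.90e-07), whereas KRT4 was at -6.45 (standard error 0.44, limma adjusted p = 2.45e-10). KRT14 was the 1 marker called with Pirfenidone, in H1975 at 24 h, where 1.89% of all probes were called. It was 1.29 higher (standard error 0.38), with -2.17 to -1.89 on the PBS arrays and -1.26 to -0.13 on the Pirfenidone arrays. At 6 h the H1975 PBS arrays had KRT14 at -1.28 to -0.49. TP63, KRT5, DSG3, KRT6B and SERPINB13 were not well above background on any array.

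Markers of other cell types were checked in the same way. Of 7 fibroblast and endothelial markers 5 were tested, with 3 higher and 1 lower in H1975 with PBS at each time. Of all probes, 32.4% were called between the lines at 6 h and 32.9% at 24 h. The higher ones, PDGFRB, PECAM1 and VWF, were well above background on 0 of 12 A549 arrays. The lower one, LUM, was so on 0 of 12 H1975 arrays. Each passed the filter through 1 line alone, so the counts are descriptions. With Pirfenidone 0 of these markers were called in the 4 comparisons. Of the markers chosen to tell the lines apart, 2 of 4 were higher and 2 lower in H1975 at each time. They were chosen with earlier results of these data known, so these counts are descriptions and no test of the labels.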
